A study of Homo sapiens with 6 samples.

Results

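DNA replication licensing and fork genes were described in VCaP cells, a human prostate cancer line that carries the TMPRSS2-ERG fusion. The 51 genes were chosen by function, as the rows of the deposited table whose symbol is on a list of factors. The list covers origin licensing, the replicative helicase and polymerases, the clamp and its loader, and fork protection, but not every subunit of each. All 51 were found among the 58735 gene identifiers of the table, and all 51 passed the filter on low counts. The silenced cells were a VCaP line stably infected with a short hairpin RNA, or shRNA, that silences NEDD9 (shNEDD9), and its control was a VCaP line infected with a non-targeting shRNA (shNTC). Both lines grew in DMEM medium with serum (10% FBS). From each, 3 stranded total RNA libraries were sequenced, described by the submitters as biological triplicates. How many hairpins were used, and whether the stable cells were a pool or a clone, is not given in the sources used here.

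The chromosome is copied once per cycle from origins that are prepared, or licensed, in advance. In G1 phase the origin recognition complex (ORC), CDC6 and CDT1 load the ring-shaped helicase MCM2-7 onto DNA, and geminin (GMNN) later blocks CDT1 so that no origin is licensed again. In S phase the kinase DDK, together with cyclin-dependent kinases, brings CDC45 and the GINS complex to MCM2-7, primase starts each strand, and polymerases epsilon and delta extend it on the sliding clamp PCNA. Many of these genes are textbook targets of E2F transcription factors, which act at entry into S phase, and prostate cancer cells use them as all dividing cells do.

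NEDD9 was lower in every shNEDD9 library, at 137, 138 and 135.5 CPM against 361, 338 and 364 CPM in shNTC. CPM are read counts per 1000000 counts, with each library total multiplied by its TMM factor. Library totals were 5956486 to 9902002 counts in shNEDD9 and 3217276 to 7492244 in shNTC, and the lowest count of any of the 51 genes in any library was 16. Mitochondrial transcripts took 2.39 to 2.43% of counts in shNEDD9 and 3.29 to 3.40% in shNTC, and their part in the results below was not tested. The 11 luminal and VCaP markers each averaged 155.7 CPM or more in both groups, and summed to 18290 to 18820 CPM in shNEDD9 and 15650 to 15910 CPM in shNTC. Of the 11, 4 rose, 5 fell and 2 were not called (edgeR), where 35.5% of all tested genes rose and 35.9% fell. KLK3 rose 3.36-fold, and KRT8 had 171 CPM in shNEDD9 and 463 CPM in shNTC, the largest changes up and down among the 11. Of 8 fibroblast markers 5 averaged under 1 CPM, and the list summed to 47.7 to 55.8 CPM in shNEDD9 and 26.9 to 34.5 CPM in shNTC, most of it LUM, with FAP at 0. The 5 endothelial markers summed to 2.54 to 2.85 CPM in shNEDD9 and 2.01 to 3.13 CPM in shNTC, with CDH5 at 0. The 6 immune markers summed to 5.69 to 6.64 CPM in shNEDD9 and 18.2 to 25.1 CPM in shNTC, most of the shNTC sum from LYZ, with CD3E and CD68 at 0. Counts of replicate libraries spread a little beyond counting error, with a chi-square per degree of freedom of 1.14 to 1.205. The p-values rest on that spread alone, and part of it may be technical. Each group came from its own stably infected line, so the p-values compare lines. An effect of silencing and other differences between the lines cannot be told apart.

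Together the 51 genes held 0.607 ± 0.00158% of all counts in shNEDD9 and 0.310 ± 0.00215% in shNTC (SD, n = 3 each). The groups of libraries did not overlap (two-sided exact permutation p = 0.1, the smallest that 3 against 3 libraries allow). In edgeR's quasi-likelihood test, adjusted by the Benjamini-Hochberg method over all 13958 tested genes and called at an adjusted p under 0.05, 50 of the 51 rose in shNEDD9, 0 fell and 1, POLE, was not called. Among all tested genes 35.5% were called higher and 35.9% lower, 71.4% in all. Of polymerase subunits outside the 51, POLE3 rose, while POLD4 and POLE4 fell, as described below. At least 2-fold increases were called for 31 of the 51, or 60.8%, against 7.67% of all tested genes. Over the 51 the log2 fold change had a median of 1.12, a 2.18-fold difference, where the median of all tested genes was 0.00. In 50 of the 51 genes every shNEDD9 library was above every shNTC library, a separation in that direction seen in 35.7% of all tested genes (71.8% in either direction). In bulk RNA, more cells in a cycle phase and more RNA per cell cannot be told apart.

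**Figure D1:**
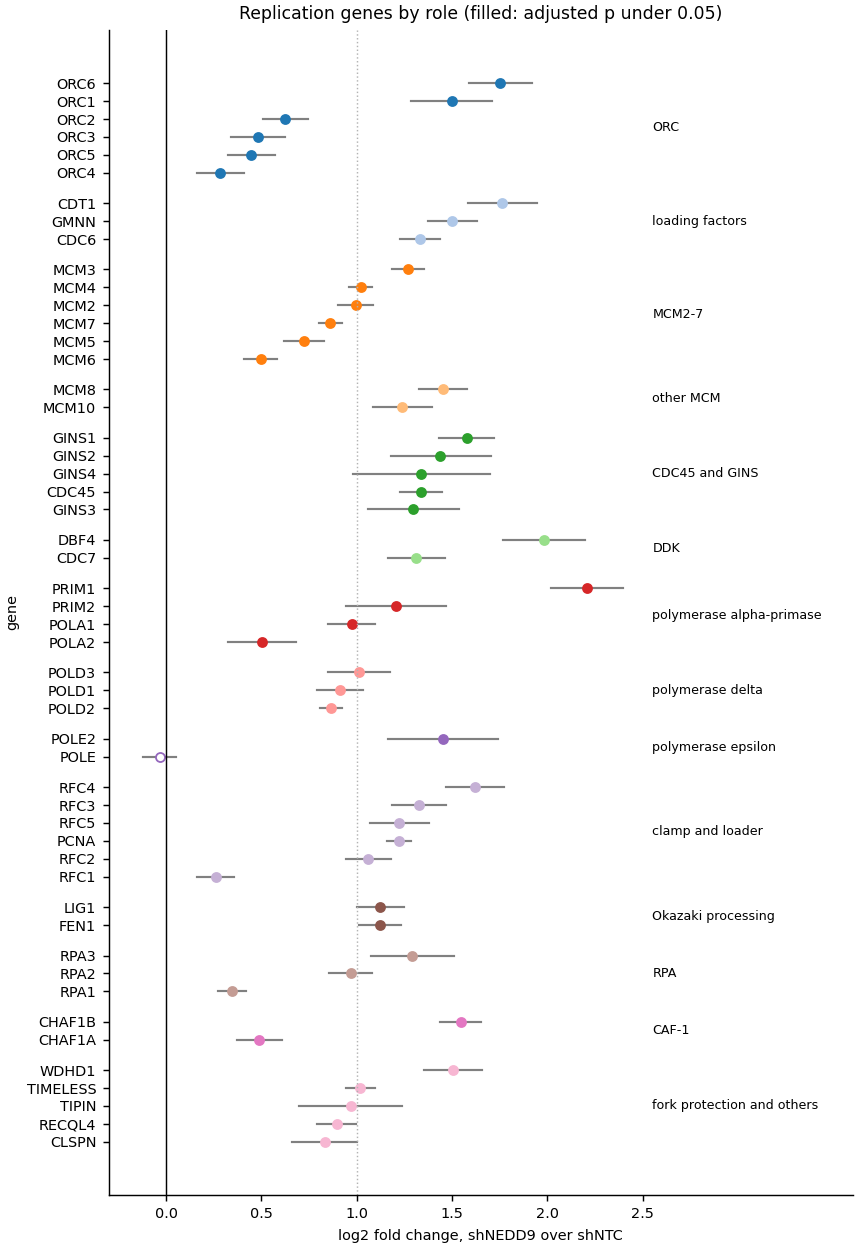
log2 fold change of each of the 51 genes (shNEDD9 over shNTC, edgeR, n = 3 libraries each), grouped by role, with 95% intervals; the dotted line marks 2-fold. Filled points passed an adjusted p under 0.05, and POLE is the only open point. Values run from -0.03 for POLE to 2.21 for PRIM1.

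The start regions of these genes were searched for the letters of 3 known promoter elements. RefSeq start windows (GRCh38.p14, 250 bases before to 50 after a listed start) were matched by symbol for 44 of the 51 genes. Of 44, 22 (50%) held one of the E2F letter strings TTTCCCGC, TTTCGCGC, TTTGCCGC or TTTGGCGC on either strand, against 6.57% of 10290 tested genes with a window and 3.315% of all 35116 windows. Matches on the 2 strands may overlap. The CCAAT box (letters CCAAT, either strand) was in 26 of 44 genes (59.1%), against 43.3% of the tested genes and 34.6% of all windows. The CHR element (TTTGAA or TTCGAA, either strand), which is known from genes expressed in G2 and mitosis, was in 2 of 44, DBF4 and MCM6, against 14.97% of the tested genes and 16.35% of all windows. A separate list of replication genes outside the 51, described below, had windows for 49 genes. Of these 49, 31 held the CCAAT box, 8 the E2F letters and 8 the CHR element.

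Below are the bases just before the start of 7 genes, 5′ to 3′ in the direction of the gene, in lower case with E2F matches in capitals. MCM6 is shown because it holds 4 matches in 2 copies of 1 run, although it rose least of MCM2-7. CDT1 and GINS2 are licensing and helicase genes with 1 match each and large increases. POLE2 and POLE are subunits of 1 polymerase and both carry a match near the start, but only POLE2 was called higher. POLA2 has a match and a small increase, and PRIM1 has none of the strings searched and the largest increase. Only exact matches were marked, so similar letters that differ by 1 base stay in lower case. All end at the base before the start, except POLE2, whose match runs 3 bases past it.
MCM6 (chr2:135876444-135876603, minus strand): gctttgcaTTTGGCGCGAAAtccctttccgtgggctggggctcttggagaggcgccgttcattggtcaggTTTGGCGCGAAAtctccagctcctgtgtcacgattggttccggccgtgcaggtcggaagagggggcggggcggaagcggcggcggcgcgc
CDT1 (chr16:88803709-88803788, plus strand): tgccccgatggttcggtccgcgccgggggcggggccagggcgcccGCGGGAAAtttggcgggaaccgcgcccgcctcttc
GINS2 (chr16:85688955-85689034, minus strand): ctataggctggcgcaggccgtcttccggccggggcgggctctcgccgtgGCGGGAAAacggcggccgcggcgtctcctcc
POLE2 (chr14:49688212-49688294, minus strand): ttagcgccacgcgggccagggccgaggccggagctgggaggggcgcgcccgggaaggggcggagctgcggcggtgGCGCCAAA
POLE (chr12:132687343-132687422, minus strand): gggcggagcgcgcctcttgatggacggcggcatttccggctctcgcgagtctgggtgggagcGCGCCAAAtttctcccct
POLA2 (chr11:65261882-65261961, plus strand): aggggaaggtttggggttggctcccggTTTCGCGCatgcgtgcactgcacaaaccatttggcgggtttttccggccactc
PRIM1 (chr12:56752324-56752403, minus strand): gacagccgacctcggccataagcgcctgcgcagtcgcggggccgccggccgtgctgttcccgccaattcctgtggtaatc

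The 22 genes with a match had a median log2 fold change of 1.24 (-0.03 to 1.76), and the 22 without one a median of 1.16 (0.26 to 2.21). Of the 22 without a match, PRIM1, DBF4, ORC6, RFC4 and CHAF1B rose most, and RFC1, ORC4, RPA1, ORC5 and CHAF1A rose least. A match is a string of letters and not a measured binding site, and the match counts are descriptions without a test.

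**Figure D2:**
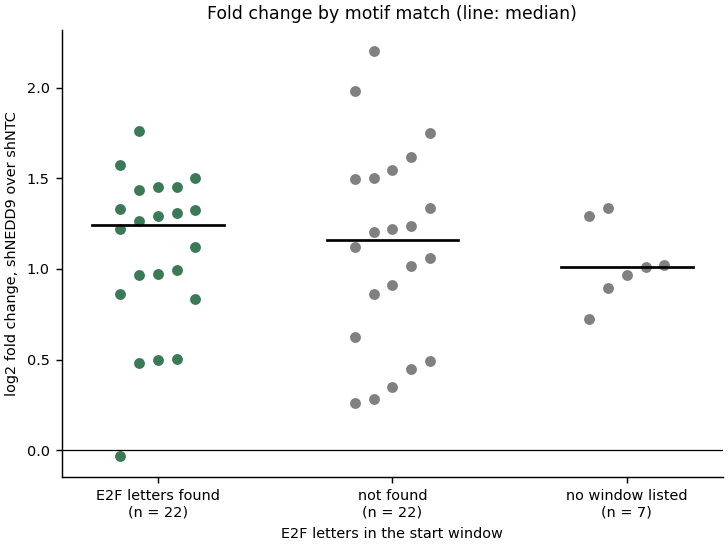
log2 fold change of the 51 genes (shNEDD9 over shNTC) by whether the E2F letters were found in the RefSeq start window; each point is a gene, the line is the median, and the 7 genes with no listed window stand apart. The 22 genes with a match run from -0.03 to 1.76 with a median of 1.24, and the 22 without from 0.26 to 2.21 with a median of 1.16.

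The 6 ORC subunits, which mark origins and recruit the loading factors, all rose, but by unequal amounts. ORC6, the subunit least tightly bound to the rest in human cells, had 58.6, 62.4 and 61.6 CPM in shNEDD9 against 17.2, 19.1 and 18.7 CPM in shNTC. ORC1, an ATPase whose level in human cells varies through the cycle, had 35.3, 35.2 and 31.6 CPM in shNEDD9 against 12.6, 10.7 and 11.9 CPM in shNTC. Every shNEDD9 library of both genes was well above every shNTC library, and the increases were 3.37-fold and 2.82-fold (SE of the log2 fold change 0.09 and 0.11).

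The core subunits ORC2, ORC3, ORC4 and ORC5 rose less, by 1.54-fold, 1.40-fold, 1.22-fold and 1.36-fold. ORC4 showed the narrowest gap, with 63.4, 64.2 and 71.1 CPM in shNEDD9 against 59.6, 52.0 and 50.7 CPM in shNTC. Its lowest shNEDD9 library lay just above its highest shNTC library, and the increase passed the test (log2 fold change 0.28, SE 0.06, edgeR adjusted p = 1.51e-05). The summed counts of ORC1 and ORC6 over those of ORC2 to ORC5 were 0.340, 0.348 and 0.325 in shNEDD9 against 0.139, 0.159 and 0.151 in shNTC. This ratio was thus 2.26-fold higher in shNEDD9, with no overlap between the groups.

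Such ratios within a library do not depend on how libraries are scaled. The ratio of CDT1 to GMNN was planned, and 7 others were chosen after the values were seen. Each was tested with a two-sided exact permutation test, for which p = 0.1 is the smallest value this design allows, so none could pass 0.05. Adjusted over the 8 ratios, that smallest p becomes 0.133 (exact permutation test, Benjamini-Hochberg). The adjustment does not account for choosing ratios after the values were seen, so the separation of those 7 is only a description.

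All 3 factors that act with ORC in loading were higher. CDT1, which brings MCM2-7 to the origin, had 54.7, 53.1 and 48.5 CPM in shNEDD9 against 14.5, 17.2 and 14.97 CPM in shNTC. CDC6, the ATPase that loads it, had 138, 147 and 138 CPM in shNEDD9 against 58.3, 49.8 and 56.8 CPM in shNTC. GMNN, the inhibitor of CDT1, had 90.02, 92.9 and 101 CPM in shNEDD9 against 30.8, 33.8 and 37.1 CPM in shNTC. The activators and the inhibitor were thus all raised, by 3.40-fold for CDT1 (GRCh38 chromosome 16), 2.51-fold for CDC6 (chromosome 17) and 2.83-fold for GMNN (chromosome 6).

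The ratio of CDT1 to GMNN counts was 0.608, 0.572 and 0.478 in shNEDD9 and 0.470, 0.509 and 0.403 in shNTC. The groups overlapped, with means of 0.552 ± 0.0672 in shNEDD9 and 0.461 ± 0.0535 in shNTC (SD, n = 3 each), a 1.198-fold difference (two-sided exact permutation p = 0.2).

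The 6 subunits of the MCM2-7 ring all rose, from 1.41-fold for MCM6 to 2.41-fold for MCM3. MCM3 had 235, 213 and 225 CPM in shNEDD9 against 88.9, 97.7 and 95 CPM in shNTC (log2 fold change 1.27, SE 0.04). MCM6 had 161, 162 and 164 CPM in shNEDD9 against 114, 111 and 119 CPM in shNTC (log2 fold change 0.50, SE 0.04). The 95% intervals of these 2 folds, 2.27 to 2.552 and 1.33 to 1.497, lie apart.

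The other ring subunits lay between them. MCM4 rose 2.03-fold, MCM2 1.99-fold, MCM7 1.82-fold and MCM5 1.65-fold. MCM5 had 112, 110 and 120 CPM in shNEDD9 against 68.9, 81.1 and 64.1 CPM in shNTC, without overlap. Of MCM2, up to 23.6% of the exon bases overlap genes on the opposite strand, with bases shared by several genes counted for each. Its counts could thus include other reads if strand was not used in counting.

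The ring is built from 1 copy of each subunit, but its RNAs were not equally abundant. Levels between genes were compared as CPM per kilobase of merged exons in GENCODE 29, which understates genes with many annotated exons that the cells do not use. On that scale MCM7 was highest, at 98.8 ± 2.26 in shNEDD9 and 54.1 ± 1.28 in shNTC, and MCM5 lowest, at 15.6 ± 0.714 in shNEDD9 and 9.73 ± 1.195 in shNTC (SD, n = 3 each). The ratio of the highest to the lowest level was 6.36 in shNEDD9 and 5.56 in shNTC.

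Both MCM proteins outside the ring were higher as well. MCM10, which helps to start the assembled helicase, rose 2.36-fold, at 54.2, 62.1 and 58.8 CPM in shNEDD9 against 24.5, 28.2 and 23.6 CPM in shNTC. MCM8, a helicase subunit known from homologous recombination, rose 2.73-fold, at 99.9, 98.1 and 96.0 CPM in shNEDD9 against 32.8, 32.9 and 40.6 CPM in shNTC. MCM9, its partner and not among the 51, had 9.16 ± 1.605 CPM in shNEDD9 and 12.03 ± 1.09 CPM in shNTC (SD, n = 3 each) and fell by 0.45 on the log2 scale (edgeR adjusted p = 0.00389). That call was lost without shNEDD9 library 3 (edgeR adjusted p = 0.129), without shNTC library 1 (0.0777), with DESeq2 (0.0659) and after thinning of every library to equal depth (0.254).

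**Figure D3:**
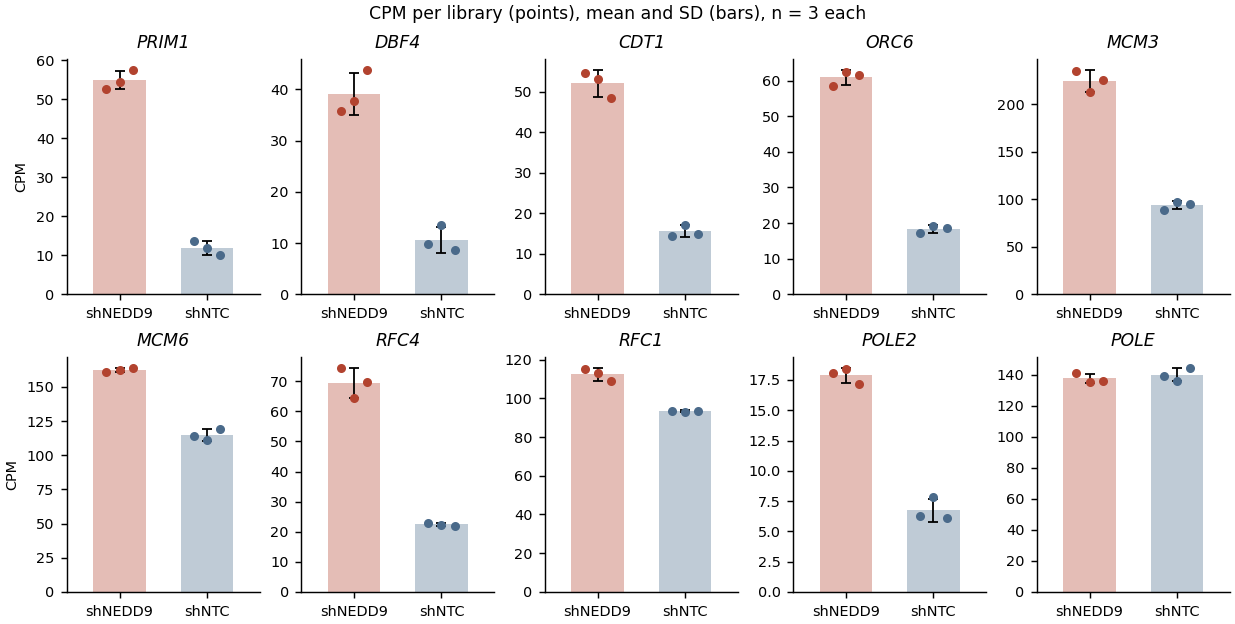
CPM of 10 genes in each library (points), with the mean (bar) and SD of the 3 shNEDD9 libraries and the 3 shNTC libraries. PRIM1 and DBF4 show the widest gaps, MCM6 and RFC1 narrow ones, and the 2 groups of POLE overlap.

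The factors that turn the loaded ring into a moving helicase rose by similar amounts. CDC45 had 127, 133 and 135 CPM in shNEDD9 against 48.9, 58.3 and 53.2 CPM in shNTC, a 2.52-fold difference. GINS1, GINS2, GINS3 and GINS4, the GINS subunits, rose 2.98-fold, 2.71-fold, 2.45-fold and 2.53-fold. GINS1 had 79.5, 74.4 and 79.8 CPM in shNEDD9 against 26.5, 21.3 and 28.1 CPM in shNTC, and GINS3 had 24.9, 23.8 and 24.6 CPM in shNEDD9 against 10.2, 8.14 and 10.6 CPM in shNTC. The 5 log2 fold changes lay between 1.29 and 1.58, a narrower span than those of MCM2-7 (0.50 to 1.27) or ORC (0.28 to 1.75).

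GINS4 was the least abundant of the 51 genes, with 11.4, 12.7 and 9.35 CPM in shNEDD9 against 5.63, 5.01 and 2.496 CPM in shNTC. Its groups did not overlap, but its 95% interval of the fold was wide, at 1.97 to 3.25. GINS2 was also low, with 22.6, 23.5 and 18.7 CPM in shNEDD9 against 8.44, 5.32 and 8.42 CPM in shNTC. Per kilobase, CDC45 reached 46.3 ± 1.42 in shNEDD9 and 18.8 ± 1.64 in shNTC, against 2.03 ± 0.307 in shNEDD9 and 0.800 ± 0.303 in shNTC for GINS4 (SD, n = 3 each).

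DDK, the kinase that phosphorylates MCM2-7, consists of the catalytic subunit CDC7 and its activator DBF4. DBF4 had 35.8, 37.8 and 43.7 CPM in shNEDD9 against 9.78, 13.5 and 8.58 CPM in shNTC, and its 3.95-fold increase was second only to that of PRIM1 among the 51. CDC7 had 64.3, 65.8 and 69.4 CPM in shNEDD9 against 31.2, 24.7 and 23.1 CPM in shNTC, a 2.48-fold difference. The ratio of DBF4 to CDC7 counts was 0.557, 0.574 and 0.630 in shNEDD9 against 0.313, 0.544 and 0.372 in shNTC, just without overlap (two-sided exact permutation p = 0.1). The pseudogene DBF4P1 had 8 counts in total, all in shNEDD9.

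Polymerase alpha and primase lay the first nucleotides of every new strand. PRIM1, the catalytic primase subunit (GRCh38 chromosome 12), had 52.7, 54.5 and 57.4 CPM in shNEDD9 against 13.7, 11.9 and 9.98 CPM in shNTC. At 4.61-fold (log2 fold change 2.21, SE 0.10, edgeR adjusted p = 3.50e-113) its increase was the largest of the 51 genes. In GENCODE 29, up to 21.6% of its exon bases overlap other genes, among them NACA on the same strand, and reads there may have been dropped or shared.

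The partners of PRIM1 rose less. PRIM2, the regulatory primase subunit, had 20.3, 18.9 and 19.4 CPM in shNEDD9 against 7.91, 6.26 and 10.1 CPM in shNTC, a 2.30-fold difference. POLA1, the catalytic subunit of polymerase alpha, rose 1.96-fold, and POLA2, its accessory subunit, 1.42-fold. POLA2 had 34.0, 34.6 and 32.8 CPM in shNEDD9 against 22.9, 23.8 and 24.8 CPM in shNTC. Of its exon bases 35.1% overlap a gene on the same strand, the most of any of the 51.

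The ratio of PRIM1 to PRIM2 counts was 2.60, 2.89 and 2.96 in shNEDD9 against 1.73, 1.9 and 0.985 in shNTC. It was 1.901-fold higher in shNEDD9, without overlap (two-sided exact permutation p = 0.1). Per kilobase, PRIM1 was the highest of the 4 genes in shNEDD9 (22.5 ± 0.971), whereas POLA1 was the highest in shNTC (6.92 ± 0.5004; SD, n = 3 each).

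Polymerase delta makes the lagging strand, and its 3 subunits among the 51 genes rose. The catalytic subunit POLD1 rose 1.88-fold, POLD2 1.82-fold and POLD3 2.02-fold. POLD1 had 91.2, 87.6 and 89.97 CPM in shNEDD9 against 44.4, 53.6 and 48.0 CPM in shNTC. POLD2 had 528, 508 and 506 CPM in shNEDD9 against 280.1, 284 and 282.5 CPM in shNTC, and was second to PCNA in level per kilobase in both groups. POLD3 had 52.0, 49.3 and 46.7 CPM in shNEDD9 against 22.8, 24.7 and 25.7 CPM in shNTC.

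The smallest subunit of polymerase delta, POLD4, is not among the 51 and went the other way. It had 8.64 ± 1.597 CPM in shNEDD9 and 27.0 ± 1.93 CPM in shNTC (SD, n = 3 each). It fell by 1.58 on the log2 scale (SE 0.12, edgeR adjusted p = 4.61e-39).

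Polymerase epsilon, the leading-strand enzyme, was split. POLE, its catalytic subunit (GRCh38 chromosome 12), had 141, 135 and 136 CPM in shNEDD9 and 139, 136 and 144 CPM in shNTC. The groups overlapped and the difference was not called (log2 fold change -0.03, SE 0.04, edgeR adjusted p = 0.493). The 95% interval of its fold, 0.92 to 1.04, leaves out the 2.18-fold median of the 51.

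POLE2, the accessory subunit, had 18.1, 18.4 and 17.2 CPM in shNEDD9 against 6.30, 7.83 and 6.08 CPM in shNTC, a 2.73-fold increase (log2 fold change 1.45, SE 0.15). The ratio of POLE2 to POLE counts was 0.128, 0.136 and 0.126 in shNEDD9 against 0.0453, 0.0575 and 0.0421 in shNTC. The 2.71-fold difference of this ratio was the largest of the 8 ratios, without overlap (two-sided exact permutation p = 0.1). Of the 2 histone-fold subunits, which are not among the 51, POLE3 rose 1.67-fold and POLE4 fell by 0.25 on the log2 scale (edgeR adjusted p = 0.00921). The groups of POLE4 overlapped, and its call was lost without shNEDD9 library 3 (edgeR adjusted p = 0.184), without shNTC library 1 (0.0669) and with DESeq2 (0.104).

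PCNA, the clamp that tethers polymerases, was the most abundant of the 51 per kilobase, at 322 ± 4.31 in shNEDD9 and 139 ± 5.15 in shNTC (SD, n = 3 each). It had 469, 471 and 480.5 CPM in shNEDD9 against 201, 214 and 199.8 CPM in shNTC, a 2.33-fold difference. Its pseudogenes PCNAP1, PCNAP3 and PCNAP4 held 0, 2 and 0 counts over all 6 libraries.

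RFC1 to RFC5 form the loader that opens PCNA onto DNA. RFC4 had 74.3, 64.4 and 69.8 CPM in shNEDD9 against 23.1, 22.2 and 22.0 CPM in shNTC, a 3.07-fold difference. RFC3, RFC5 and RFC2 rose 2.51-fold, 2.33-fold and 2.09-fold. RFC1, the large subunit that is particular to this loader, had 115, 113 and 109 CPM in shNEDD9 against 93.7, 93.0 and 93.4 CPM in shNTC. Its increase of 1.197-fold was the smallest of the 50 that were called (log2 fold change 0.26, SE 0.05, edgeR adjusted p = 4.58e-07).

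The small loader subunits RFC2 to RFC5 are also known to serve alternative loaders, in which another large subunit replaces RFC1. Summed counts of RFC2 to RFC5 over those of RFC1 were 2.63, 2.66 and 2.75 in shNEDD9 against 1.29, 1.32 and 1.38 in shNTC, without overlap (two-sided exact permutation p = 0.1). Of the large subunits of alternative loaders, ATAD5 rose 3.01-fold, at 51.8 ± 1.26 CPM in shNEDD9 and 16.6 ± 3.04 CPM in shNTC. CHTF18 rose 2.09-fold, at 70.3 ± 0.547 CPM in shNEDD9 and 34.1 ± 2.02 CPM in shNTC, and RAD17 rose 1.34-fold (SD, n = 3 each). These 3 were singled out after their values were seen.

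**Figure D4:**
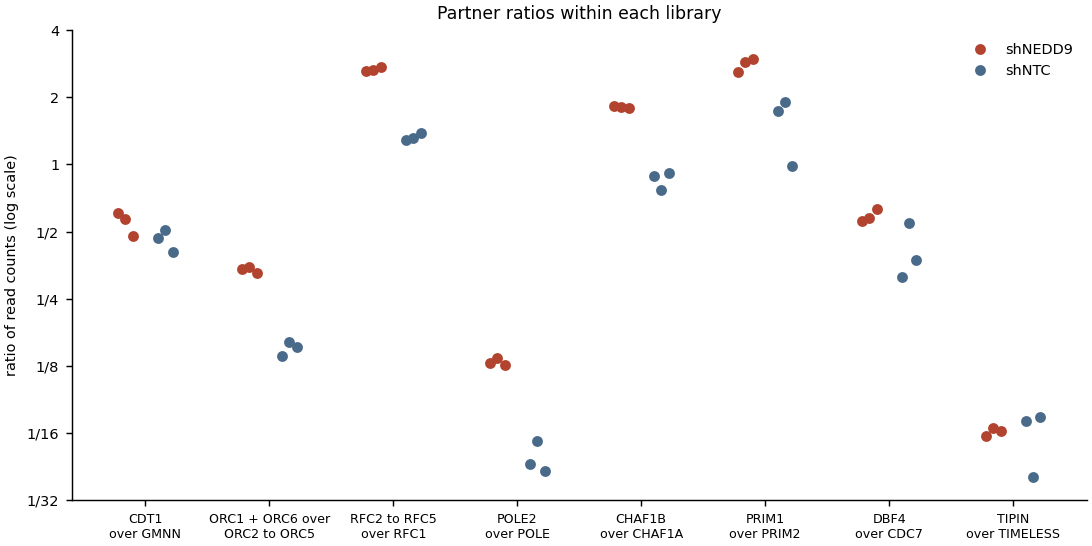
Ratio of read counts of partner genes in each of the 3 shNEDD9 and 3 shNTC libraries, on a log scale. 6 of the 8 ratios were higher in every shNEDD9 library than in any shNTC library, while CDT1 over GMNN and TIPIN over TIMELESS overlapped. All but CDT1 over GMNN were chosen after the values were seen.

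FEN1 and LIG1 cut and seal the fragments of the lagging strand, and they moved together. FEN1 had 127, 116 and 117 CPM in shNEDD9 against 53.8, 52.3 and 57.4 CPM in shNTC, and LIG1 had 90.2, 89.4 and 99.0 CPM in shNEDD9 against 42.8, 45.7 and 41.5 CPM in shNTC. Both differences were 2.18-fold (log2 fold change 1.12 for each, SE 0.06 for each).

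RPA coats the single strands at the fork, with 1 copy each of a large, a middle and a small subunit. RPA1, the large subunit, had 233, 221 and 228 CPM in shNEDD9 against 176, 183 and 178 CPM in shNTC and rose 1.27-fold. RPA2 had 108, 111 and 108 CPM in shNEDD9 against 54.0, 63.9 and 53.2 CPM in shNTC, and RPA3 had 29.5, 31.1 and 28.8 CPM in shNEDD9 against 12.7, 11.6 and 11.7 CPM in shNTC. These middle and small subunits rose 1.96-fold and 2.45-fold. Per kilobase, RPA2 was the highest of the 3 in shNEDD9 (53.9 ± 0.786) and RPA1 in shNTC (32.6 ± 0.606; SD, n = 3 each).

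Chromatin assembly factor 1 places new histones behind the fork. CHAF1B had 142, 149 and 152 CPM in shNEDD9 against 50.4, 48.5 and 52.3 CPM in shNTC, a 2.92-fold difference. CHAF1A, its partner, had 77.3, 81.9 and 84.4 CPM in shNEDD9 against 56.7, 63.3 and 57.3 CPM in shNTC, a 1.40-fold difference. The ratio of CHAF1B to CHAF1A counts was 1.84, 1.81 and 1.80 in shNEDD9 against 0.889, 0.767 and 0.913 in shNTC, so that the more abundant of the 2 by counts changed between the groups (two-sided exact permutation p = 0.1).

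Of the 5 fork protection and related factors, WDHD1 rose by more than the median of the 51 genes and the other 4 by less. WDHD1, which links the helicase to polymerase alpha, had 61.4, 70.0 and 71.8 CPM in shNEDD9 against 22.9, 28.8 and 23.1 CPM in shNTC, a 2.84-fold difference. TIMELESS, which binds TIPIN at the fork, rose 2.03-fold, at 284, 264 and 264 CPM in shNEDD9 against 135, 134 and 129.8 CPM in shNTC. TIPIN rose 1.96-fold, at 17.2, 17.2 and 16.8 CPM in shNEDD9 against 9.52, 5.32 and 9.52 CPM in shNTC. Of its exon bases 21.02% overlap the pseudogene RPL9P25 on the same strand. The ratio of TIPIN to TIMELESS counts overlapped between the groups, at 0.0607, 0.0654 and 0.0637 in shNEDD9 against 0.0705, 0.0397 and 0.0733 in shNTC (two-sided exact permutation p = 1).

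CLSPN, the claspin gene of the replication checkpoint, had 39.3, 42.7 and 43.7 CPM in shNEDD9 against 22.4, 20.4 and 27.0 CPM in shNTC, a 1.78-fold difference. RECQL4, a helicase needed to start replication, had 120.5, 126 and 129 CPM in shNEDD9 against 63.9, 82.1 and 64.4 CPM in shNTC, a 1.86-fold difference. Neither gene overlapped between the groups.

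**Figure D5:**
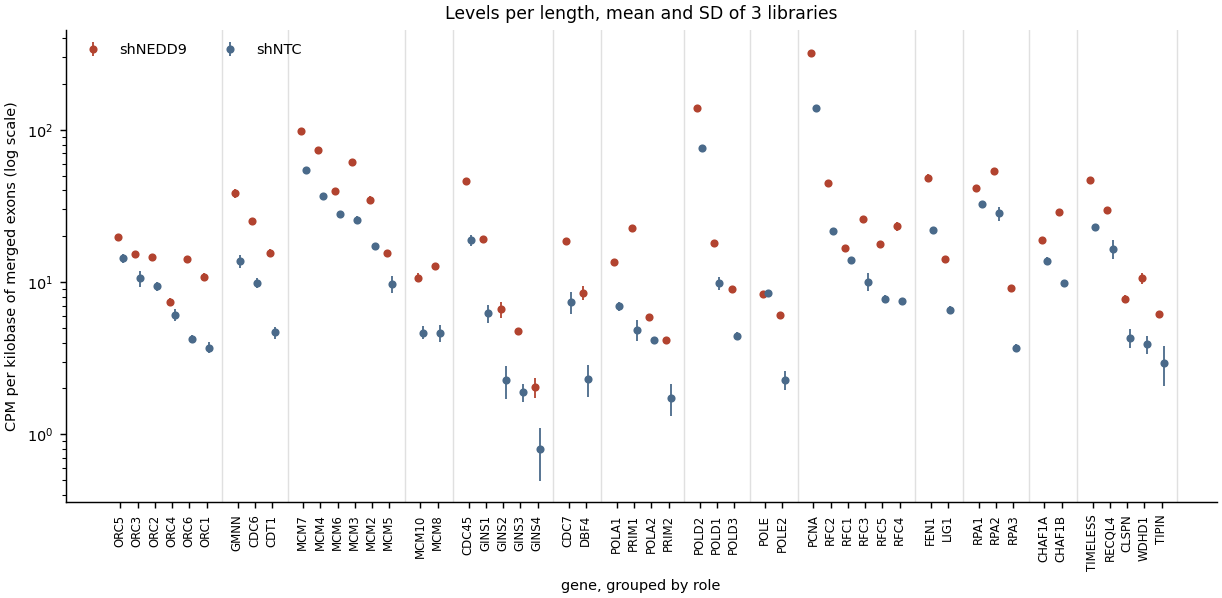
Level of each of the 51 genes as CPM per kilobase of merged exons (log scale), mean and SD of 3 shNEDD9 and 3 shNTC libraries, grouped by role. PCNA and POLD2 are highest and GINS4 lowest in both groups, and the 2 points lie closest together for POLE.

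Across the 51 genes the increases fell into bands. 5 genes were at least 3-fold higher (PRIM1, DBF4, CDT1, ORC6 and RFC4), against 2.54% of all tested genes. 26 genes rose 2-fold to under 3-fold, 11 lay from 1.5-fold to under 2-fold, and 9 lay under 1.5-fold. Shares of all tested genes were not counted for these bands, but 7.67% were called at least 2-fold higher. The 9 were POLE, RFC1, ORC4, RPA1, ORC5, ORC3, CHAF1A, MCM6 and POLA2, of which all but POLE passed the test.

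The genes do not lie together in the genome. They are spread over 20 chromosomes, with at most 6 on 1 of them. The median log2 fold change of the 10 nearest tested genes, 5 on each side, had a median of 0.02 over the 51 and ran from -0.70 around POLA2 to 0.65 around MCM6. It was above 0.5 for 3 of the 51, MCM6, ORC1 and RFC3. In GENCODE 29, 7 of the 51 share exon bases with another gene on their own strand and 18 with one on the opposite strand.

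Replication genes outside the 51 were described from a separate list. Of 59 such genes 58 were tested, 47 rose, 5 fell and 6 were not called, with a median log2 fold change of 0.78. Among all tested genes 35.5% were called higher and 35.9% lower. At least 2-fold increases were called for 21 (36.2%), against 7.67% of all tested genes. The largest increases were those of the clamp-associated factor gene PCLAF (3.98-fold), MTBP, which works with TICRR in origin firing (3.94-fold), the topoisomerase gene TOP2A (3.28-fold) and the checkpoint kinase gene CHEK1 (3.26-fold). PCLAF had 16.3 ± 1.32 CPM in shNEDD9 and 3.86 ± 0.952 CPM in shNTC, and MTBP had 24.9 ± 2.95 CPM in shNEDD9 and 6.10 ± 1.28 CPM in shNTC (SD, n = 3 each). The 5 that fell were POLD4, MCM9, RAD9A (-0.34), the ubiquitin ligase scaffold gene CUL4A (-0.29, log2 fold changes) and POLE4. RNASEH2A did not pass the filter on low counts.

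Genes of the neighbouring cycle steps were higher too. Of 12 other G1/S genes, 11 rose and 8 reached 2-fold, against 35.5% and 7.67% of all tested genes. Their median log2 fold change was 1.31. E2F1 had 203 CPM in shNEDD9 and 79.1 CPM in shNTC on average, TK1, the thymidine kinase gene, rose by 1.89 on the log2 scale, and the mismatch repair gene MSH6 was not called (0.03). Of 12 mitosis genes all rose, each at least 2-fold, against the same shares of all tested genes, with a median of 1.80. Summed, the 51 genes reached 6003 to 6065 CPM in shNEDD9 and 3089 to 3143 CPM in shNTC, the 12 G1/S genes 1546 to 1572 CPM in shNEDD9 and 642 to 687 CPM in shNTC, and the 12 mitosis genes 1670 to 1718 CPM in shNEDD9 and 522 to 538 CPM in shNTC. These lists share libraries with each other, the differences between them were not tested, and the part of a shift in cycle phase in the results was not tested.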

How the data were processed

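RNA was measured in 3 shNEDD9 and 3 shNTC libraries, grouped by their titles. The authors deposited 1 table of whole-number read counts per gene, without normalisation. STAR 2.5.3a, Subread 1.6.2, featureCounts, cutadapt 1.9 and FastQC 0.11.5 are named, per the submitters' processing notes, with the builds hg19 and GRCh38 and no roles. The annotation release and the strand setting are not given in the sources used here, so reads of overlapping genes may be mixed or dropped. 1 blank row was left out. The lowest library total sets a floor of 3 counts at 0.9395 CPM, which covers counting error only.

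Counts were tested across all genes with edgeR 4.0.16 (R 4.3.3): TMM factors, filterByExpr with a minimum count of 10, glmQLFit with robust estimation, glmQLFTest and no covariate. SE is the absolute log2 fold change divided by the square root of F, and intervals are 95%. CPM used the library total times the TMM factor. The procedure was also run on simulated data in which few genes changed, unlike here, so that run does not cover the conditions of these data. Every one of the 51 genes is named, and other replication genes by the 4 largest called changes in each direction at a mean of at least 5 CPM. Beyond that rule POLE3, POLE4, ATAD5, CHTF18, RAD17 and RNASEH2A were named after their values were seen. Members, role groups, lists and motifs were chosen with earlier results of these data known. Alternatives were RLE, upper-quartile and library-total scaling, other filters, DESeq2 1.42.0, limma-voom (limma 3.58.1), the replicate block, thinning and each library left out. Gene models came from GENCODE 29 by gene identifier, and start windows from RefSeq. Some marker genes are not reported here.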

Additional observations from a re-analysis of the deposited data

How the results depend on the processing

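The 50 increases kept their direction and stayed past the threshold under all 15 alternatives, and POLE was called in none (edgeR, DESeq2 or limma-voom adjusted p 0.366 to 0.879). Of 765 values of the 51 genes 764 kept direction and side of the threshold. The exception was POLE, whose log2 fold change was 0.026 with every library thinned to the smallest total. Increases of at least 2-fold numbered 29 to 33 over the libraries left out in turn. Of the other replication genes, 3 were called lower with DESeq2, and 3 to 5 with each library left out, against 5 as reported. The 3 came without shNEDD9 library 3 or shNTC library 1, and MCM9 and POLE4 were the calls lost; MCM9 was also lost with thinning, and the cause was not tested. MSH6, which was not called under any alternative, had log2 fold changes of -0.043 (without shNTC library 1) to 0.0794 (without shNTC library 3), against 0.03 as reported. The log2 change of the CDT1 to GMNN ratio ran from 0.17 to 0.36 over the libraries left out. That ratio uses counts alone, so filters, other tests and the block give it no other value. The median of all genes was at most 0.0213 (log2) under each scaling. Same-numbered libraries did not deviate together (correlations 0.0034 to 0.0065), although each correlated best with its own number. With the replicate number as a block, 50 of the 51 rose and 9834 genes were called in all, against 9964 without it. Depth limits the least abundant genes most: GINS4, with 16 to 100 counts a library, had the largest SE of the 51 (0.18).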
